A study of Homo sapiens with 9 samples.

Results

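This account follows 32 genes of glucose use in OVCAR4 cells: glucose transporters, the enzymes of glycolysis and their regulators, the lactate dehydrogenases and lactate transporters, the pyruvate dehydrogenase branch, and 3 enzymes of the pentose phosphate pathway. The genes were chosen by name as rows of the count table, which held 58735 genes in all, and all 32 were found. OVCAR4 is an established human cell line, labelled as ovarian serous adenocarcinoma. The study asked what loss of MPZL3, an immunoglobulin-domain transmembrane protein, does to ovarian cancer cells. All 9 libraries came from OVCAR4 cells that received a lentiviral shRNA vector and were selected with puromycin for 3 days, in a medium that contained serum, glutamine and insulin. In 3 libraries the vector carried the scramble shRNA (scr control, genotype given as WT), in 3 it carried shMPZL3 #1 and in 3 shMPZL3 #2 (genotype given as MPZL3 knock-down). The study calls the 3 libraries of a condition biological replicates. The methods name no selection of single clones, and all groups are 1 cell line.

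Total counts ranged from 15040102 to 27835841 per library. Mitochondrial genes took 7.16% to 7.76% of them under scr control, 7.75% to 8.65% under shMPZL3 #1 and 7.39% to 7.80% under shMPZL3 #2. MPZL3 itself was measured at 403 to 648 counts under scr control, 130 to 144 under shMPZL3 #1 and 281 to 375 under shMPZL3 #2, and the log2 fold change was -2.17 (SE 0.16, adjusted p = 3.73e-07) and -0.89 (SE 0.15, adjusted p = 0.000562) by the test described below. The reduction was deeper with shMPZL3 #1, so the depth of knockdown and the choice of shRNA cannot be told apart. Markers of serous carcinoma cells, summed over 8 genes, had 101500 to 106700 normalized counts per library under scr control. The sums were 106400 to 128300 under shMPZL3 #1 and 104000 to 129100 under shMPZL3 #2, although WT1 had only 63 counts in all. Of the 7 tested, 3 were higher and 1 lower with shMPZL3 #1, beside 16.8% and 15.3% of all genes. Of the markers of other cell types, DCN had 0 counts, CD68 had 1, PECAM1 81 and PTPRC 101 over the 9 libraries, while CDH5 and COL1A1 were present. The sum over the 6 markers of other cell types was 358.4 to 376.3 under scr control, 649.8 to 956.2 under shMPZL3 #1 and 539.7 to 656.9 under shMPZL3 #2. The part of all these markers and of the mitochondrial share in the results was not tested.

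In glycolysis, a transporter brings glucose into the cell, hexokinase traps it as glucose 6-phosphate, phosphofructokinase commits it to breakdown, and the later enzymes turn it into pyruvate with a gain of ATP and NADH. Pyruvate is either reduced to lactate, which monocarboxylate transporters carry across the membrane, or oxidized in mitochondria by the pyruvate dehydrogenase complex, which the PDK kinases switch off. Glucose 6-phosphate can also enter the pentose phosphate pathway, a source of NADPH and ribose. Many tumor cells, ovarian carcinoma cells among them, use glucose at a high rate and release lactate even when oxygen is present.

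Levels between genes were compared per length, as RPKM (counts per kilobase of exon, scaled to the library total). In scr control, GAPDH, which oxidizes glyceraldehyde 3-phosphate, had the highest level of the 32 genes (912 ± 39.5 RPKM, SD, n = 3). It was followed by ENO1, the ubiquitous enolase (542 ± 20), TPI1, triosephosphate isomerase (338 ± 11.2), PKM, pyruvate kinase (274 ± 20), PGAM1, phosphoglycerate mutase (269 ± 8.09), LDHA (223 ± 16.8) and PGK1, phosphoglycerate kinase (187 ± 13). PKM and PGAM1 differed by less than the spread between replicates. The 7 highest genes thus all act below the split of the 6-carbon sugar. PGD, which makes NADPH in the pentose phosphate pathway, came next at 87.8 ± 4.54, and SLC2A1, the main glucose transporter of many tumor cells, was at 57.3 ± 3.96. The lowest levels were those of PDK2 (2.2 ± 0.0633), PDK4 (0.322 ± 0.0915) and the neuronal-type glucose transporter SLC2A3 (0.0466 ± 0.0436). SLC2A3 had 2 to 13 counts per library and 58 in all, and it is the 1 member that did not pass the filter on low counts, which left 31 genes tested. The level of ALDOA, usually an abundant aldolase, was only 11.6 ± 1.23. In the annotation, 2095 of the 3916 exonic bases of ALDOA (53.5%) also belong to exons of other genes, so its level may be understated. Its place outside the 7 highest genes may then not hold, which was not tested.

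**Figure D1:**
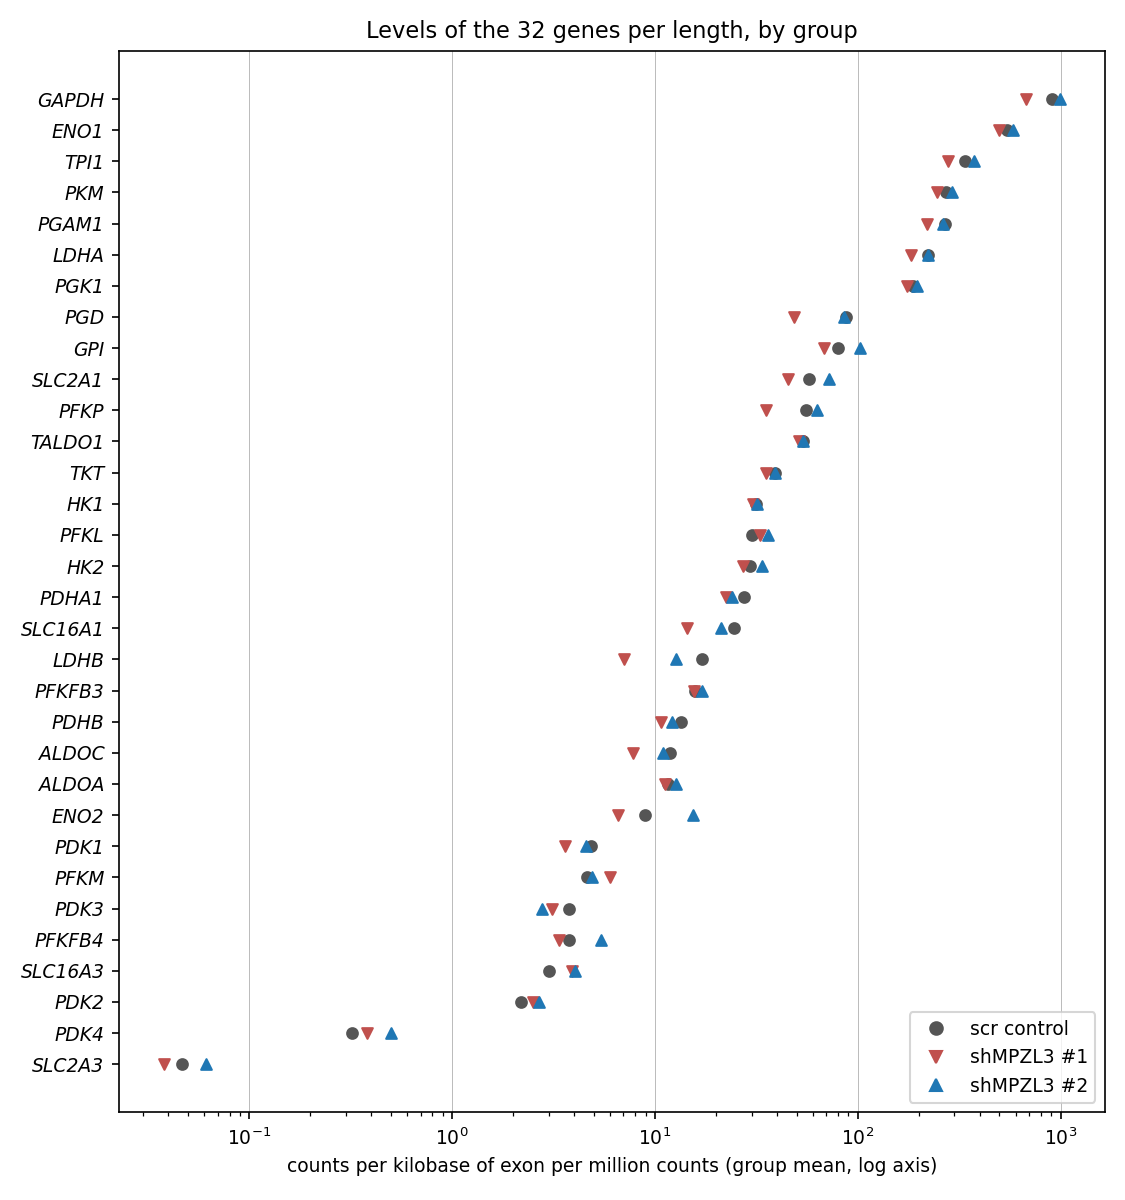
Levels of the 32 genes per length, ordered by the scr control mean. The x axis is a log scale of RPKM, and each point is the mean of the 3 libraries of a group; GAPDH is at the top (912 in scr control) and SLC2A3 at the bottom (0.0466).

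Many genes of glycolysis are known targets of the hypoxia-inducible factors, whose binding sites hold the core ACGTG or GCGTG. The 250 bases before the RefSeq start (GRCh38.p14) could be matched for 30 of the 32 genes, all but SLC2A3 and SLC16A1. On either strand, ACGTG was found in 11 of these 30 windows (36.7%) and in 18.5% of the windows of the same length before the 35116 RefSeq starts of all genes. GCGTG was found in 11 (36.7%, against 32.2% of all windows), and either core in 16 (53.3%, against 43.2%). The E-box CACGTG, which contains ACGTG on both strands and is counted on each, was found in 4 (13.3%, against 6.34%). Such a match is a description of the letters and does not show a binding site. Of the 11 matched genes that were higher with shMPZL3 #2 than with shMPZL3 #1 (below), 7 held a core, and of the other 19 genes 9 did. The windows of 3 genes that passed the test with shMPZL3 #1 are printed, 5′ to 3′ on the strand of the gene, as examples of a window without a core (PFKP), with 3 matches (PGD) and with 6 (PDHB). Capitals mark ACGTG and GCGTG on either strand. The PFKP window (chr10:3067720-3067969, plus strand) overlaps no exon of GENCODE release 29 and lies in introns of longer PFKP transcripts. Those of PGD (chr1:10398814-10399063, plus strand) and PDHB (chr3:58433833-58434082, minus strand) touch annotated exons over 20 and 25 bases.
PFKP: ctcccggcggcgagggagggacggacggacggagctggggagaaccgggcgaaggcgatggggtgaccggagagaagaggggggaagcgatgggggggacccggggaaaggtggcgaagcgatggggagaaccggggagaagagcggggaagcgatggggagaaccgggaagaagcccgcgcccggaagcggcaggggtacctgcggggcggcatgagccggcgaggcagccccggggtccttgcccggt
PGD: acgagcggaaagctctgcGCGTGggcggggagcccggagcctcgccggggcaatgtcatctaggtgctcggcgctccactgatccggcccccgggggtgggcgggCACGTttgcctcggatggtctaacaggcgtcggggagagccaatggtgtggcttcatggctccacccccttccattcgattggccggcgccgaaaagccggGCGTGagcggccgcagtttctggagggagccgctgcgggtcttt
PDHB: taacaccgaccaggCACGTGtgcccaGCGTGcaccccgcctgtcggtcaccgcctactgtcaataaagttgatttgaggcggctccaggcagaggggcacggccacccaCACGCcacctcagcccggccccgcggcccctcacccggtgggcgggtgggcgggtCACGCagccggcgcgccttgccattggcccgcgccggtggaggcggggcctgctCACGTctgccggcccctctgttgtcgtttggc

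The 2 shRNAs differed in these genes. With shMPZL3 #1, 13 of the 31 genes tested fell and 2 rose, whereas with shMPZL3 #2 1 fell and 4 rose. The genes that fell with shMPZL3 #1 included glucose uptake (SLC2A1), upper and lower glycolysis (PFKP, GAPDH and ENO2), lactate handling (LDHB and SLC16A1) and the pentose phosphate pathway (PGD). When the shRNAs were compared directly, 12 genes were higher with shMPZL3 #2 and none was lower. In bulk libraries such as these, a change in the make-up of the culture and a change in RNA per cell cannot be told apart. Calls were made by edgeR's quasi-likelihood test at a Benjamini-Hochberg adjusted p under 0.05 over 16928 genes, and the comparisons share libraries. The p-values measure the spread between cultures of 1 line.

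With shMPZL3 #1, the genes called lower were 41.9% of those tested, against 15.3% of all genes, and the genes called higher were 6.45%, against 16.8%. The median log2 fold change was -0.22 and 26 of 31 values were below 0, while the median of all genes was 0.01. With shMPZL3 #2, 12.9% were called higher, against 9.36% of all genes, and 3.23% lower, against 5.8%. The median was 0.10, with 20 values above 0, and that of all genes was 0.00. Between the shRNAs, 38.7% were called higher with shMPZL3 #2, against 7.56% of all genes, and 0 lower, also against 7.56%. At an unadjusted p under 0.05, 1 gene (PFKM) was lower by edgeR, and DESeq2 called 0 lower at its adjusted p. Of the 31 differences, 29 were above 0, with a median of 0.26 against 0.01 for all genes. The members together took 1.52% to 1.60% of all counts under scr control, 1.27% to 1.43% under shMPZL3 #1 and 1.61% to 1.69% under shMPZL3 #2, so the 3 groups did not overlap in this share. With shMPZL3 #1 the count of lower genes was 7 without scr control replicate 3 and 7 without shMPZL3 #1 replicate 3. In these fits 11.8% and 9.68% of all genes were lower. With shMPZL3 #2 the count of higher genes was 2 without scr control replicate 1 or shMPZL3 #2 replicate 1, beside 5.17% and 6.67% of all genes. It was 1 without scr control replicate 2 or 3 or shMPZL3 #2 replicate 3, beside 6.16%, 6.59% and 5.78%.

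When both shRNAs were taken as 1 knockdown group of 6 libraries, only SLC16A3 rose and only LDHB fell. Each is 3.23% of the genes tested, against 9.36% higher and 6.4% lower among all genes. The median log2 fold change of the 31 genes was -0.025, against 0.015 for all genes, with 12 values above 0 and 19 below. In this fit the difference between the shRNAs counts as spread between replicates. With the spread taken within each shRNA and the mean of both compared with scr control, 8 genes were lower (PFKP, ALDOC, LDHB, SLC16A1, PDK3, PDHA1, PDHB and PGD) and 1 was higher (SLC16A3). In that fit 13% of all genes were lower and 14.6% higher.

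**Figure D2:**
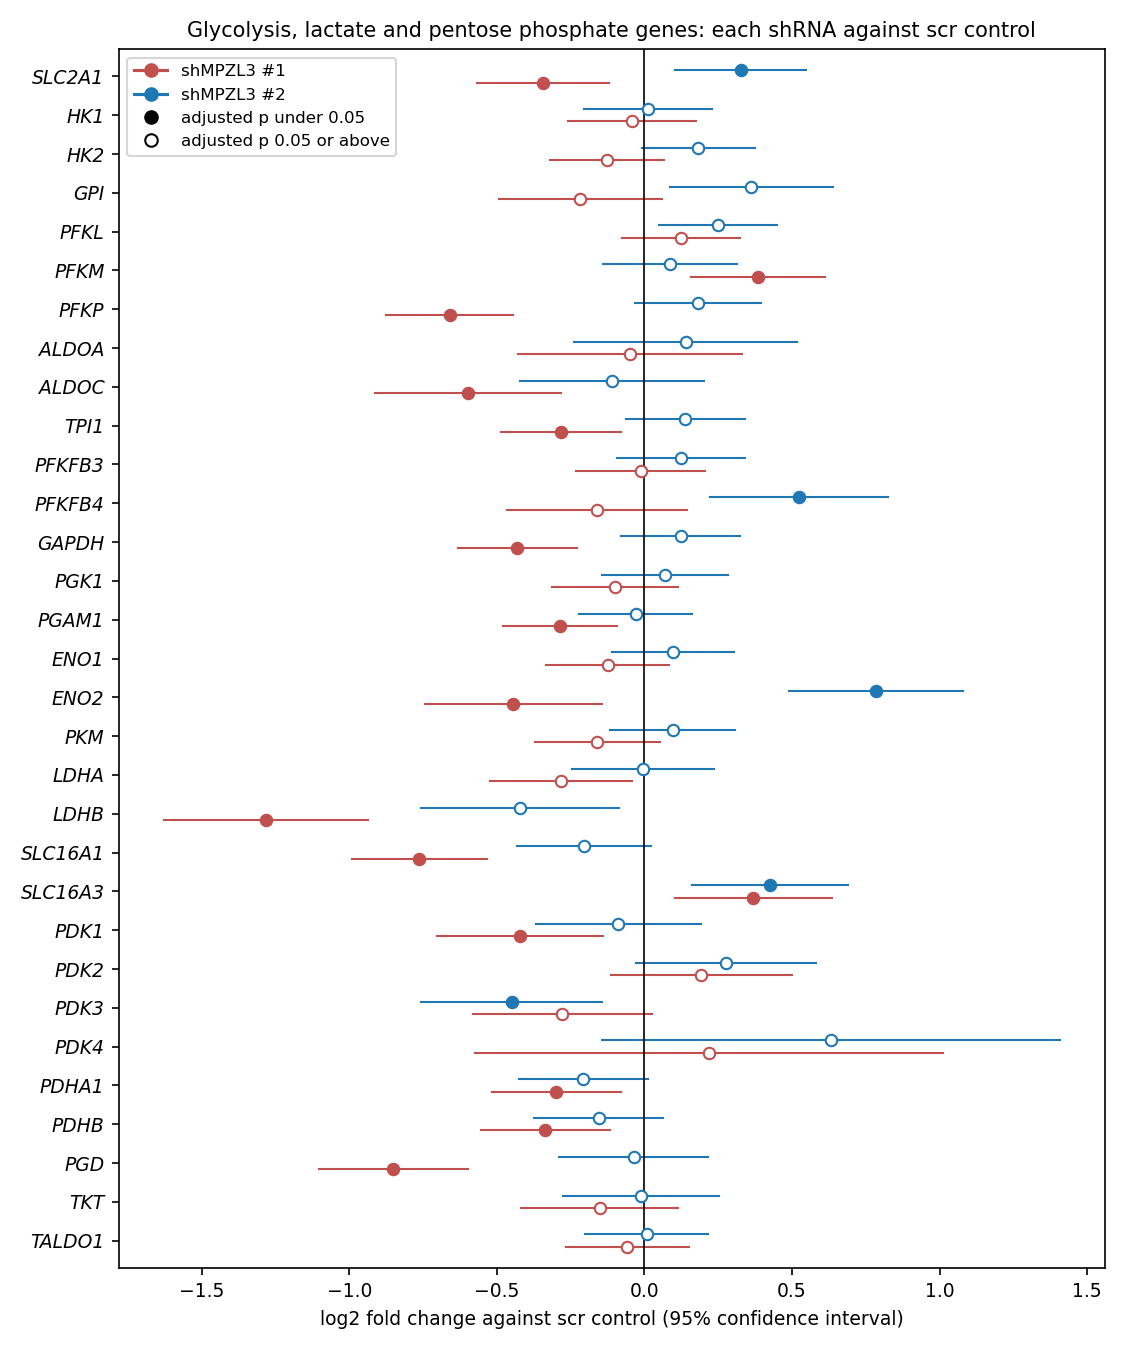
Log2 fold change of each of the 31 tested genes with shMPZL3 #1 (red) and shMPZL3 #2 (blue) against scr control. Bars are 95% confidence intervals and filled points have an adjusted p under 0.05; the red points lie below 0 for 26 genes, while SLC2A1 and ENO2 are filled on both sides of 0.

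At glucose entry, SLC2A1 (the transporter GLUT1) moved in opposite directions with the 2 shRNAs. Its normalized counts, scaled to the mean library, were 5364, 5315 and 6004 in the scr control libraries, 4974, 3947 and 4226 in the shMPZL3 #1 libraries, and 6719, 6650.3 and 7543 in the shMPZL3 #2 libraries. Every shMPZL3 #1 library was below and every shMPZL3 #2 library above all scr control libraries. The log2 fold change was -0.34 (SE 0.11, adjusted p = 0.0194) with shMPZL3 #1 and 0.33 (SE 0.11, adjusted p = 0.045) with shMPZL3 #2. The difference between the shRNAs was 0.67 (SE 0.11, adjusted p = 0.000488), or 1.59-fold. The grouped value was 0.03 (95% confidence interval -0.37 to 0.43). The fall with shMPZL3 #1 did not pass without scr control replicate 3 or without shMPZL3 #1 replicate 2 or 3 (adjusted p up to 0.0954). The rise with shMPZL3 #2 was lost without any 1 scr control library or shMPZL3 #2 replicate 1 or 3 (up to 0.186).

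Among the 9 enzymes from hexokinase to triosephosphate isomerase, 3 fell and 1 rose with shMPZL3 #1, none passed the test with shMPZL3 #2, and 5 were higher with shMPZL3 #2 than with shMPZL3 #1. Over all genes, 15.3% fell and 16.8% rose with shMPZL3 #1, and 5.8% fell and 9.36% rose with shMPZL3 #2. Between the shRNAs, 7.56% of all genes were higher with shMPZL3 #2. Of the 9 enzymes, PFKP, the platelet-type phosphofructokinase, changed most. The gene lies at chr10:3066333-3137712, plus strand (hg38). Its normalized counts were 5113, 5473 and 6020.4 in the scr control libraries, 3876, 3242 and 3389.6 in the shMPZL3 #1 libraries, and 6085, 6027 and 6713 in the shMPZL3 #2 libraries. The shMPZL3 #1 libraries lay below all others, at 63.3% of the control mean. Log2 fold changes of PFKP were -0.66 (SE 0.10, adjusted p = 0.000153) with shMPZL3 #1 and 0.18 (SE 0.10, adjusted p = 0.249) with shMPZL3 #2, and the shRNAs differed by 0.84 (SE 0.10, adjusted p = 4.94e-05). The fall and the difference passed in every alternative fit tried.

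The muscle-type phosphofructokinase PFKM, a lower-expressed isozyme, went the other way. Normalized counts of PFKM were 761, 674 and 650.3 in the scr control libraries, 978, 888 and 859 in the shMPZL3 #1 libraries, and 763, 691 and 759.9 in the shMPZL3 #2 libraries. All shMPZL3 #1 libraries lay above the scr control and the shMPZL3 #2 libraries, and the log2 fold change with shMPZL3 #1 was 0.39 (SE 0.11, adjusted p = 0.0112), which did not pass without scr control replicate 2 or 3 (up to 0.0704). PFKM shares 628 exonic bases with SENP1 on the opposite strand, a gene with 4326 counts, and the libraries carry no strand information. The liver-type PFKL was at 0.12 with shMPZL3 #1 and 0.25 with shMPZL3 #2 and passed neither test.

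The fructose-bisphosphate aldolase ALDOC fell with shMPZL3 #1. Normalized counts of ALDOC were 689, 646 and 802 in the scr control libraries, 599, 407 and 403 in the shMPZL3 #1 libraries, and 678, 698 and 601 in the shMPZL3 #2 libraries. In log2 terms the fold change was -0.60 (SE 0.15, adjusted p = 0.00582), and it passed in every alternative fit tried. TPI1 fell less, by a log2 fold change of -0.28 (SE 0.10, adjusted p = 0.0324), with 18048 to 19160.4 normalized counts in scr control and 13899 to 16691 with shMPZL3 #1. It did not pass without any 1 scr control library, shMPZL3 #1 replicate 2 or 3, or shMPZL3 #2 replicate 3, nor under 2 other filters on low counts (up to 0.116).

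Both hexokinase genes among the members, HK1 and HK2, were close to control. The hexokinase-domain gene HKDC1, which is not a member, rose with both shRNAs (below). HK1, the housekeeping hexokinase, was at -0.04 with shMPZL3 #1 and 0.01 with shMPZL3 #2. HK2, the inducible hexokinase of many tumors, had 3525 to 3764 normalized counts under scr control, 3319.6 to 3442 under shMPZL3 #1 and 3855 to 4456 under shMPZL3 #2. These ranges did not overlap. Neither shRNA passed the test against control for HK2, and the difference between them was 0.31 (SE 0.09, adjusted p = 0.0301), which did not pass without scr control replicate 2 or 3, shMPZL3 #1 replicate 2 or 3, or shMPZL3 #2 replicate 2 or 3, nor with no filter on low counts (up to 0.162). GPI, glucose-6-phosphate isomerase, was at -0.22 and 0.36 against control and differed between the shRNAs by 0.58 (SE 0.13, adjusted p = 0.00698). For ALDOC and TPI1 the shRNAs differed by 0.49 (SE 0.15, adjusted p = 0.0351) and 0.42 (SE 0.10, adjusted p = 0.00706). The ALDOC difference did not pass without shMPZL3 #1 replicate 2 or 3 or any 1 shMPZL3 #2 library (up to 0.141), and that of TPI1 was lost without shMPZL3 #2 replicate 3 (0.0552).

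The PFKFB enzymes set the level of fructose 2,6-bisphosphate, the activator of phosphofructokinase. PFKFB4 rose with shMPZL3 #2. Normalized counts were 457, 476 and 484 in the scr control libraries, 530.0, 371 and 367 in the shMPZL3 #1 libraries, and 605, 716 and 715 in the shMPZL3 #2 libraries. All shMPZL3 #2 libraries were above all others. In log2 terms the fold change was 0.52 (SE 0.14, adjusted p = 0.0203) with shMPZL3 #2 and -0.16 (SE 0.14, adjusted p = 0.429) with shMPZL3 #1, and the shRNAs differed by 0.68 (SE 0.14, adjusted p = 0.00392). The rise did not pass without any 1 scr control library or without shMPZL3 #2 replicate 3 (up to 0.083). The hypoxia-inducible PFKFB3 passed no test, with values of -0.01 and 0.12.

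In lower glycolysis, GAPDH, PGAM1 and ENO2 fell with shMPZL3 #1 and ENO2 rose with shMPZL3 #2. The normalized counts of GAPDH were 58214, 53379.5 and 55878 in the scr control libraries, 45499, 40807 and 37958 in the shMPZL3 #1 libraries, and 57489, 64056 and 60869.6 in the shMPZL3 #2 libraries. The shMPZL3 #1 libraries lay below all others, at 74.2% of the control mean. The log2 fold change was -0.43 (SE 0.10, adjusted p = 0.00259) with shMPZL3 #1 and 0.12 (SE 0.10, adjusted p = 0.422) with shMPZL3 #2, and the shRNAs differed by 0.55 (SE 0.10, adjusted p = 0.000995). These calls of GAPDH passed in every alternative fit tried. The 62 genes named as GAPDH pseudogenes held at most 0.62% of its count in a library. PGAM1 had 13795 to 14632 normalized counts in scr control and 10804 to 12482 with shMPZL3 #1, a log2 fold change of -0.29 (SE 0.09, adjusted p = 0.0236). That call was lost without any 1 scr control library, without shMPZL3 #1 replicate 3 or shMPZL3 #2 replicate 3, and with no filter on low counts (up to 0.0859).

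ENO2, the neuron-type enolase, showed the largest difference between the shRNAs of the 31 genes. The gene lies at chr12:6913745-6923698, plus strand (hg38). Its normalized counts were 747, 671 and 945 in the scr control libraries, 571, 558 and 602 in the shMPZL3 #1 libraries, and 1086, 1436 and 1538 in the shMPZL3 #2 libraries. No group overlapped another. Log2 fold changes of ENO2 were -0.44 (SE 0.14, adjusted p = 0.0241) with shMPZL3 #1 and 0.79 (SE 0.14, adjusted p = 0.000979) with shMPZL3 #2. The shRNAs differed by 1.23 (SE 0.14, adjusted p = 3.37e-05), or 2.35-fold. The rise and the difference passed in every alternative fit tried, whereas the fall with shMPZL3 #1 did not without scr control replicate 3 or shMPZL3 #1 replicate 1 or 2 (up to 0.147). The abundant enzymes ENO1, PGK1 and PKM passed no test. Their values were -0.12, -0.10 and -0.16 with shMPZL3 #1 and 0.10, 0.07 and 0.10 with shMPZL3 #2.

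Lactate handling held the only calls of the grouped comparison. LDHB encodes the heart-type subunit of lactate dehydrogenase, which favors the oxidation of lactate. The gene lies at chr12:21635342-21757857, minus strand (hg38). It had normalized counts of 1207, 908 and 1023 in the scr control libraries, 499, 485 and 305 in the shMPZL3 #1 libraries, and 799, 852 and 692 in the shMPZL3 #2 libraries. All 6 knockdown libraries were below all 3 scr control libraries, and all shMPZL3 #1 libraries were below all shMPZL3 #2 libraries. With shMPZL3 #1 LDHB was at 41% of the control mean, a log2 fold change of -1.28 (SE 0.16, adjusted p = 3.26e-05), the largest fall of the 31 genes and the only change of at least 1 on the log2 scale against scr control. With shMPZL3 #2 it was -0.42 (SE 0.16, adjusted p = 0.0857), and the shRNAs differed by 0.86 (SE 0.16, adjusted p = 0.00195). In the grouped comparison it was -0.79 (SE 0.24, adjusted p = 0.0431), with an exact two-sided permutation p of 0.0357. The permutation test uses the same libraries and treats the 6 knockdown libraries as alike, although the shRNAs differed in LDHB. Among members not called in the grouped comparison, it gave 0.0238 for PDK3 and 0.0357 for PDHA1. For SLC2A1, PFKP and ENO2 it gave 0.952, 0.452 and 0.702. Among the fits with 1 library left out, the grouped call of LDHB was lost without any 1 scr control library and without shMPZL3 #1 replicate 1 or 2 (up to 0.193). Other annotated genes share 33.4% of the exonic bases of LDHB. LDHA, the muscle-type subunit that favors lactate production, had 26601 to 30754 normalized counts in scr control and 21040.5 to 25168 with shMPZL3 #1. Its log2 fold change of -0.28 (SE 0.11, adjusted p = 0.0674) missed the threshold with shMPZL3 #1, and the value with shMPZL3 #2 was 0.00 (95% confidence interval -0.24 to 0.24).

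The 2 lactate transporters moved apart with shMPZL3 #1. SLC16A1 (MCT1), a high-affinity carrier, had normalized counts of 2747, 2796 and 2471 in the scr control libraries, 1604, 1769.6 and 1352 in the shMPZL3 #1 libraries, and 2191, 2486 and 2286 in the shMPZL3 #2 libraries. The shMPZL3 #1 libraries lay below all others, at 59% of the control mean, and the log2 fold change was -0.76 (SE 0.11, adjusted p = 8.23e-05). With shMPZL3 #2 it was -0.20 (SE 0.11, adjusted p = 0.223), the shRNAs differed by 0.56 (SE 0.11, adjusted p = 0.00233), and the fall and the difference passed in every alternative fit tried. SLC16A3 (MCT4), the exporter of strongly glycolytic cells, rose with both shRNAs. It had normalized counts of 639.6, 505 and 528 in the scr control libraries, 726, 671 and 760.4 in the shMPZL3 #1 libraries, and 746, 659 and 837 in the shMPZL3 #2 libraries. All 6 knockdown libraries were above all 3 scr control libraries. The log2 fold change was 0.37 (SE 0.13, adjusted p = 0.0325) with shMPZL3 #1, 0.43 (SE 0.13, adjusted p = 0.029) with shMPZL3 #2 and 0.40 (SE 0.12, adjusted p = 0.0343) grouped, with an exact two-sided permutation p of 0.0119, the smallest that 6 against 3 libraries allow. The difference between the shRNAs was 0.06 (95% confidence interval -0.20 to 0.32). All 3 calls were lost without scr control replicate 2 or 3, the grouped call also without scr control replicate 1, shMPZL3 #1 replicate 3 or shMPZL3 #2 replicate 1, and the calls for each shRNA without its replicate 3 or, with shMPZL3 #2, its replicate 1 (up to 0.171, 0.158 and 0.148). SLC16A3 shares 482 exonic bases with CSNK1D on the opposite strand, a gene with 31322 counts, and the libraries carry no strand information.

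**Figure D3:**
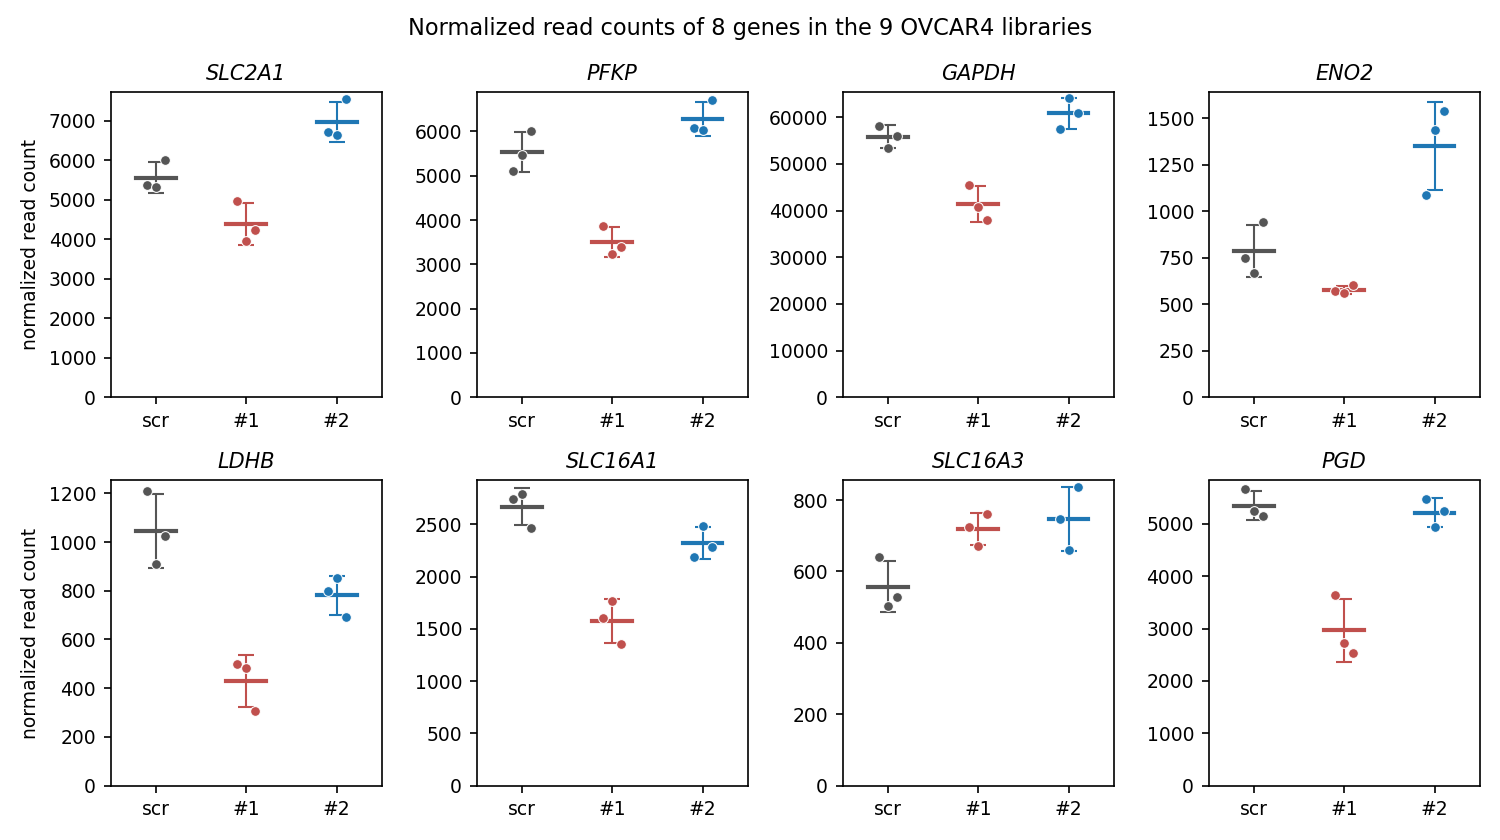
Normalized read counts of 8 genes in each of the 9 libraries (scr, scr control; #1 and #2, the shRNAs). Points are libraries, wide lines are group means and bars are SD (n = 3); SLC2A1, PFKP and ENO2 are lowest with #1 and highest with #2, SLC16A3 is higher with both, and PGD is low with #1 alone.

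At the entry to the mitochondrial route, the catalytic subunits of pyruvate dehydrogenase fell modestly with shMPZL3 #1. PDHA1 had 2449 to 2626 normalized counts under scr control, 1867 to 2393 under shMPZL3 #1 and 2109.9 to 2296 under shMPZL3 #2, and PDHB had 1257 to 1371, 913 to 1106 and 1101 to 1253. For both genes all 6 knockdown libraries were below all 3 scr control libraries. The log2 fold changes with shMPZL3 #1 were -0.30 (SE 0.10, adjusted p = 0.0364) and -0.34 (SE 0.10, adjusted p = 0.0204), and the grouped values of -0.25 (SE 0.10, adjusted p = 0.0957) and -0.24 (SE 0.10, adjusted p = 0.122) missed the threshold. With shMPZL3 #2 they were -0.21 and -0.15 and did not pass. The PDHB call was lost without scr control replicate 1 or shMPZL3 #1 replicate 3 (up to 0.0991), and the PDHA1 call without any 1 scr control library, shMPZL3 #1 replicate 2 or 3 or shMPZL3 #2 replicate 3, and under 2 other filters and 1 other scaling (up to 0.145).

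The kinases that inhibit the complex did not move as 1 group. PDK1 fell with shMPZL3 #1. Normalized counts of PDK1 were 1425, 1489 and 1521 in the scr control libraries, 1194, 1246 and 873 in the shMPZL3 #1 libraries, and 1213, 1626 and 1334 in the shMPZL3 #2 libraries, a log2 fold change of -0.42 (SE 0.13, adjusted p = 0.0226) with shMPZL3 #1 and -0.09 (SE 0.13, adjusted p = 0.701) with shMPZL3 #2. The call was lost without scr control replicate 2 or 3 or shMPZL3 #1 replicate 3 (up to 0.117). PDK3 fell with shMPZL3 #2. Its normalized counts were 391, 357 and 409.7 in the scr control libraries, 315, 375 and 264 in the shMPZL3 #1 libraries, and 274, 288 and 283 in the shMPZL3 #2 libraries, with a log2 fold change of -0.45 (SE 0.14, adjusted p = 0.0446) for shMPZL3 #2 and -0.28 (SE 0.14, adjusted p = 0.154) for shMPZL3 #1. That call is near the threshold and was lost under 9 of 17 alternatives, among them the loss of any 1 scr control or shMPZL3 #2 library or of shMPZL3 #1 replicate 1 (up to 0.136). PDK2 had a grouped value of 0.24 (95% confidence interval -0.04 to 0.52), and PDK4, the kinase induced by fasting, had 23.8 to 66.9 normalized counts and a grouped 95% confidence interval of -0.29 to 1.18.

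Of the 3 pentose phosphate genes among the members, only PGD, the 6-phosphogluconate dehydrogenase of the oxidative arm, passed a test. Other genes of this pathway are described below. The gene lies at chr1:10398592-10420144, plus strand (hg38). Normalized counts of PGD were 5664, 5239.6 and 5146 in the scr control libraries, 3649, 2717 and 2537 in the shMPZL3 #1 libraries, and 5479.7, 4936 and 5237 in the shMPZL3 #2 libraries. The shMPZL3 #1 libraries were at 55.5% of the control mean and lay below all others, while the shMPZL3 #2 libraries overlapped scr control. The log2 fold change was -0.85 (SE 0.12, adjusted p = 7.92e-05) with shMPZL3 #1 and -0.04 (SE 0.12, adjusted p = 0.874) with shMPZL3 #2. The shRNAs differed by 0.81 (SE 0.12, adjusted p = 0.00029), and the fall and the difference passed in every alternative fit tried. The remaining pentose phosphate members, both of the non-oxidative arm, were near control. TKT, transketolase, was at -0.15 and -0.01, and TALDO1, transaldolase, at -0.06 and 0.01, with shMPZL3 #1 and #2.

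Because both genes of a pair are read from the same library, their ratio needs no scaling between libraries. These values are per length and carry no test. SLC16A3 made up 11% ± 1.24 (SD, n = 3) of SLC16A3 plus SLC16A1 under scr control, 21.4% ± 3.33 under shMPZL3 #1 and 16% ± 2.21 under shMPZL3 #2, and the 3 groups did not overlap. The share of LDHB in both dehydrogenase genes was 7.16% ± 1.28, 3.66% ± 0.656 and 5.49% ± 0.843. The shMPZL3 #1 libraries (2.92% to 4.19%) were below all others, and those of shMPZL3 #2 (4.86% to 6.45%) overlapped scr control (6.37% to 8.63%). PFKP made up 64.8% ± 0.449 of PFKP plus PFKL under scr control, 51.7% ± 2.35 under shMPZL3 #1 and 63.7% ± 1.12 under shMPZL3 #2. The share of ENO2 in both enolases was 1.62% ± 0.238, 1.31% ± 0.155 and 2.59% ± 0.49, and its shMPZL3 #2 libraries were above all others. HK1 and HK2 stayed near parity, with HK2 at 48.5% ± 1.04, 47.1% ± 2.23 and 51.4% ± 2.26 of the pair.

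**Figure D4:**
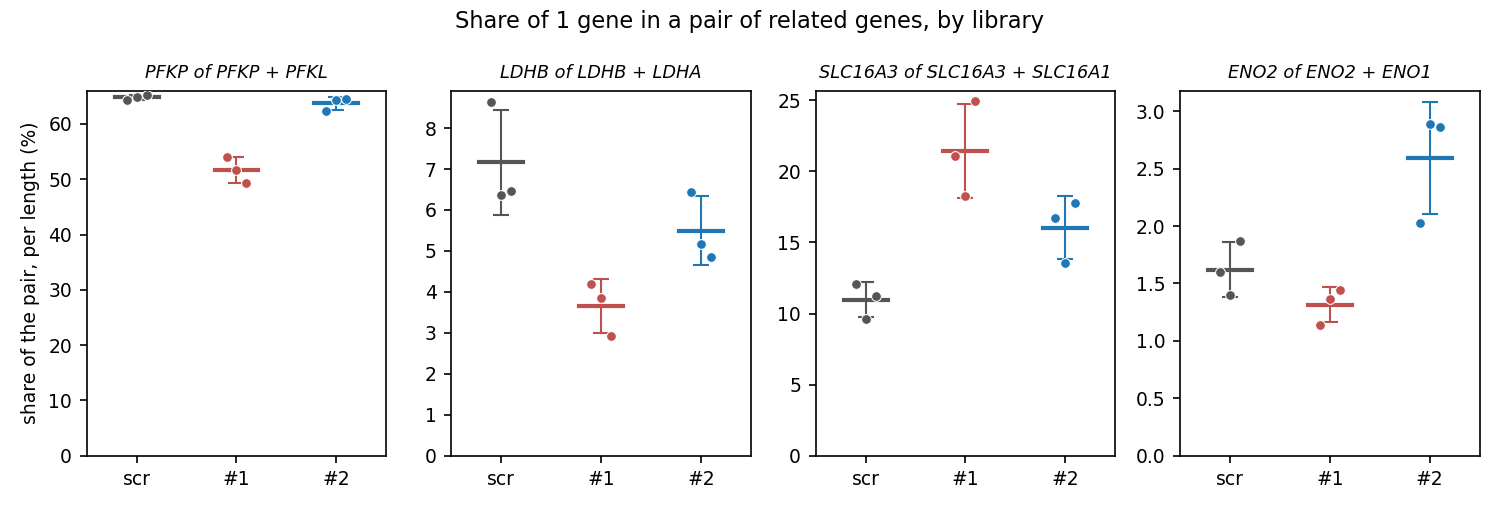
Share of the first gene in 4 pairs of related genes, as a percent of the pair per length, in each library. Points are libraries, wide lines means and bars SD (n = 3); SLC16A3 is at 11% (scr), 21.4% (#1) and 16% (#2), and PFKP and LDHB are lowest with #1.

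Of the 31 genes, 12 passed none of the 4 tests: HK1, PFKL, ALDOA, PFKFB3, PGK1, ENO1, PKM, LDHA, PDK2, PDK4, TKT and TALDO1. Their 95% confidence intervals for the grouped log2 fold change bound what the grouped comparison could miss, and not the change with either shRNA alone. They were -0.23 to 0.18 for TALDO1, -0.23 to 0.20 for HK1, -0.16 to 0.28 for PFKFB3, -0.24 to 0.21 for PGK1, -0.24 to 0.22 for ENO1 and -0.27 to 0.22 for PKM. ALDOA (-0.33 to 0.42) and LDHA (-0.41 to 0.14) had wider intervals, and PFKL was at -0.02 to 0.39 and TKT at -0.35 to 0.19. Intervals for a single shRNA reached further in some genes, among them LDHA with shMPZL3 #1 (-0.52 to -0.04) and PFKL with shMPZL3 #2 (0.05 to 0.45). No interval is adjusted for the number of genes tested.

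The neighboring genes of the pathway were taken from 9 lists with 96 genes, of which 81 passed the filter. In the grouped comparison 15 of them were higher and 4 lower, beside 9.36% and 6.4% of all genes. With shMPZL3 #1 the counts were 20 and 10, beside 16.8% and 15.3%, and with shMPZL3 #2 they were 21 and 2, beside 9.36% and 5.8%. Set directly against shMPZL3 #1, shMPZL3 #2 had 10 of them higher and 5 lower, beside 7.56% in each direction. Their medians were 0.02, -0.03, 0.09 and 0.08 on the log2 scale. Apart from SLC2A14, the glucose-sensing genes TXNIP and ARRDC4 had the largest grouped changes of the genes named here. TXNIP, which restrains glucose uptake and is induced by sugar phosphates, had normalized counts of 1221, 1603 and 1731 in the scr control libraries, 5306, 6459 and 6730.1 in the shMPZL3 #1 libraries, and 4037, 5993 and 4943 in the shMPZL3 #2 libraries, a grouped log2 fold change of 1.88 (SE 0.17, adjusted p = 8.77e-05). Its paralogue ARRDC4 had 169, 258 and 265 in the scr control libraries, 492, 742 and 671 in the shMPZL3 #1 libraries, and 491, 977 and 818 in the shMPZL3 #2 libraries, a grouped change of 1.59 (SE 0.23, adjusted p = 0.00113). All 6 knockdown libraries of both genes were above all scr control libraries. The other 3 of the 5 genes on this list, MLX, MLXIP and MLXIPL, encode the factors that drive both. MLX fell with shMPZL3 #1 (-0.43, SE 0.11, adjusted p = 0.00912), and MLXIP and MLXIPL passed no test.

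Of 9 other hexose transporters tested, 3 rose and none fell in the grouped comparison. The shares of all genes, 9.36% higher and 6.4% lower, stand beside this and each grouped count below. The intracellular transporter SLC2A8 had 588 to 624 normalized counts under scr control, 938 to 1152 under shMPZL3 #1 and 1001 to 1055 under shMPZL3 #2, a grouped change of 0.75 (SE 0.10, adjusted p = 0.000563), and SLC2A6 had 0.55 (SE 0.12, adjusted p = 0.00964). SLC2A14, a near copy of SLC2A3 with which it can share reads, had 1, 13 and 4 counts under scr control, 27, 62 and 70 under shMPZL3 #1 and 12, 33 and 67 under shMPZL3 #2, a change of 2.59 (SE 0.64, adjusted p = 0.0171) that rests on few counts. With shMPZL3 #1 6 of the 9 rose, beside 16.8% of all genes. With shMPZL3 #2, 3 were lower than with shMPZL3 #1, beside 7.56% of all genes. Among 7 other glycolytic enzymes, the hexokinase-domain gene HKDC1 rose (grouped 0.75, SE 0.12, adjusted p = 0.00148), with 1117 to 1336, 1783 to 2469 and 1986 to 2204 normalized counts, and GALM, galactose mutarotase, fell (-0.66, SE 0.17, adjusted p = 0.0196). SLC16A4, a monocarboxylate transporter family member, was the 1 of 8 genes of its list to rise in the grouped comparison (1.07, SE 0.27, adjusted p = 0.02). Without scr control replicate 1, SLC2A6, SLC2A14, GALM and SLC16A4 did not pass (adjusted p up to 0.0916, 0.0951, 0.1 and 0.122), and other single scr control libraries also decided the last 3.

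DLAT, the acetyltransferase of the pyruvate dehydrogenase complex, was at 1912 to 2131 normalized counts under scr control, 837 to 1104 under shMPZL3 #1 and 1547 to 1691 under shMPZL3 #2. It was the 1 of 6 other genes of the complex to change in the grouped comparison (-0.63, SE 0.18, adjusted p = 0.0358). With shMPZL3 #1 it was at 49.9% of the control mean (adjusted p = 1.15e-05), and the shRNAs differed by 0.67 (SE 0.11, adjusted p = 0.000654). Of 10 other pentose phosphate genes, H6PD rose and RPE and PRPS1 fell in the grouped comparison, beside 9.36% of all genes higher and 6.4% lower. H6PD, which makes NADPH inside the endoplasmic reticulum, had 659.5 to 758, 1748 to 2145 and 1160.5 to 1378 normalized counts. Its change was 1.42 (SE 0.11, adjusted p = 6.19e-07) with shMPZL3 #1, 0.80 (SE 0.11, adjusted p = 0.000113) with shMPZL3 #2 and 1.14 (SE 0.19, adjusted p = 0.00194) grouped, and it was lower with shMPZL3 #2 than with shMPZL3 #1 by a log2 difference of -0.61 (SE 0.11, adjusted p = 0.00112). RPE, ribulose-phosphate epimerase, and PRPS1, which activates ribose for nucleotide synthesis, were at -0.39 (SE 0.11, adjusted p = 0.0307) and -0.35 (SE 0.10, adjusted p = 0.0273) grouped. In gluconeogenesis and glycogen metabolism, GBE1, the branching enzyme, was the 1 of 13 genes to change in the grouped comparison (0.56, SE 0.12, adjusted p = 0.0103). Among the fits with 1 library left out or another filter, the grouped calls of DLAT, RPE and PRPS1 were lost without any 1 scr control library (up to 0.146, 0.161 and 0.145), that of DLAT also without shMPZL3 #1 replicate 1 or 2, that of RPE without shMPZL3 #1 replicate 1 or shMPZL3 #2 replicate 3, that of PRPS1 with no filter, and that of GBE1 without scr control replicate 1 or 2 (0.0895).

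Among 8 factors of the hypoxia pathway, 3 rose and none fell in the grouped comparison: the prolyl hydroxylases EGLN3 (0.88, SE 0.12, adjusted p = 0.00084) and EGLN1 (0.34, SE 0.09, adjusted p = 0.0268) and EPAS1, which encodes HIF-2α (0.61, SE 0.13, adjusted p = 0.0101). HIF1A had a grouped value of 0.02 (95% confidence interval -0.25 to 0.30). Of 15 hypoxia targets outside glycolysis, 3 rose and none fell in the grouped comparison. The counts of both lists stand beside 9.36% of all genes higher and 6.4% lower. ADM, which encodes the vasodilator peptide adrenomedullin, was at 354 to 594 normalized counts under scr control, 876 to 1331 under shMPZL3 #1 and 1089 to 1549.8 under shMPZL3 #2 (1.35, SE 0.20, adjusted p = 0.00103 grouped). The endoplasmic reticulum oxidase ERO1A and the collagen prolyl hydroxylase P4HA2 were at 0.71 (SE 0.17, adjusted p = 0.0142) and 0.66 (SE 0.10, adjusted p = 0.00148). With shMPZL3 #1 3 of the 15 rose and 2 fell, VEGFA (-0.52, SE 0.10, adjusted p = 0.000604) and BNIP3 (-0.35, SE 0.11, adjusted p = 0.0241), and with shMPZL3 #2 6 rose and none fell. Over all genes, 16.8% rose and 15.3% fell with shMPZL3 #1, and 9.36% rose and 5.8% fell with shMPZL3 #2. Between the shRNAs, 7.56% of all genes differed in each direction. The BNIP3 call with shMPZL3 #1 was lost without scr control replicate 3 or shMPZL3 #1 replicate 1 or 3 (up to 0.101). In 5 of the 15, the shRNAs differed, always with the higher level for shMPZL3 #2, and these 5 are named after their values were seen: VEGFA (0.73, SE 0.10, adjusted p = 9.74e-05), DDIT4 (0.60, SE 0.13, adjusted p = 0.00467), NDRG1 (0.51, SE 0.14, adjusted p = 0.0176), CA12 (0.49, SE 0.15, adjusted p = 0.0346) and BNIP3 (0.40, SE 0.11, adjusted p = 0.0236). The grouped calls of EGLN1, EPAS1 and ERO1A were lost without scr control replicate 1 (up to 0.16, 0.0522 and 0.1), that of EGLN1 also without replicate 2 or 3 or with no filter, and that of ERO1A without replicate 2. The differences of NDRG1, CA12 and BNIP3 were lost without shMPZL3 #2 replicate 3 and without 2 or more other single libraries (up to 0.0681, 0.115 and 0.0857). Against scr control, the rises of CA12, NDRG1 and DDIT4 with shMPZL3 #2 also depended on single libraries. Those of CA12 and NDRG1 were lost without scr control replicate 1 or 2 or any 1 shMPZL3 #2 library (up to 0.222 and 0.196). That of DDIT4 was lost without scr control replicate 2 or 3 or shMPZL3 #2 replicate 3 (up to 0.0743).

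**Figure D5:**
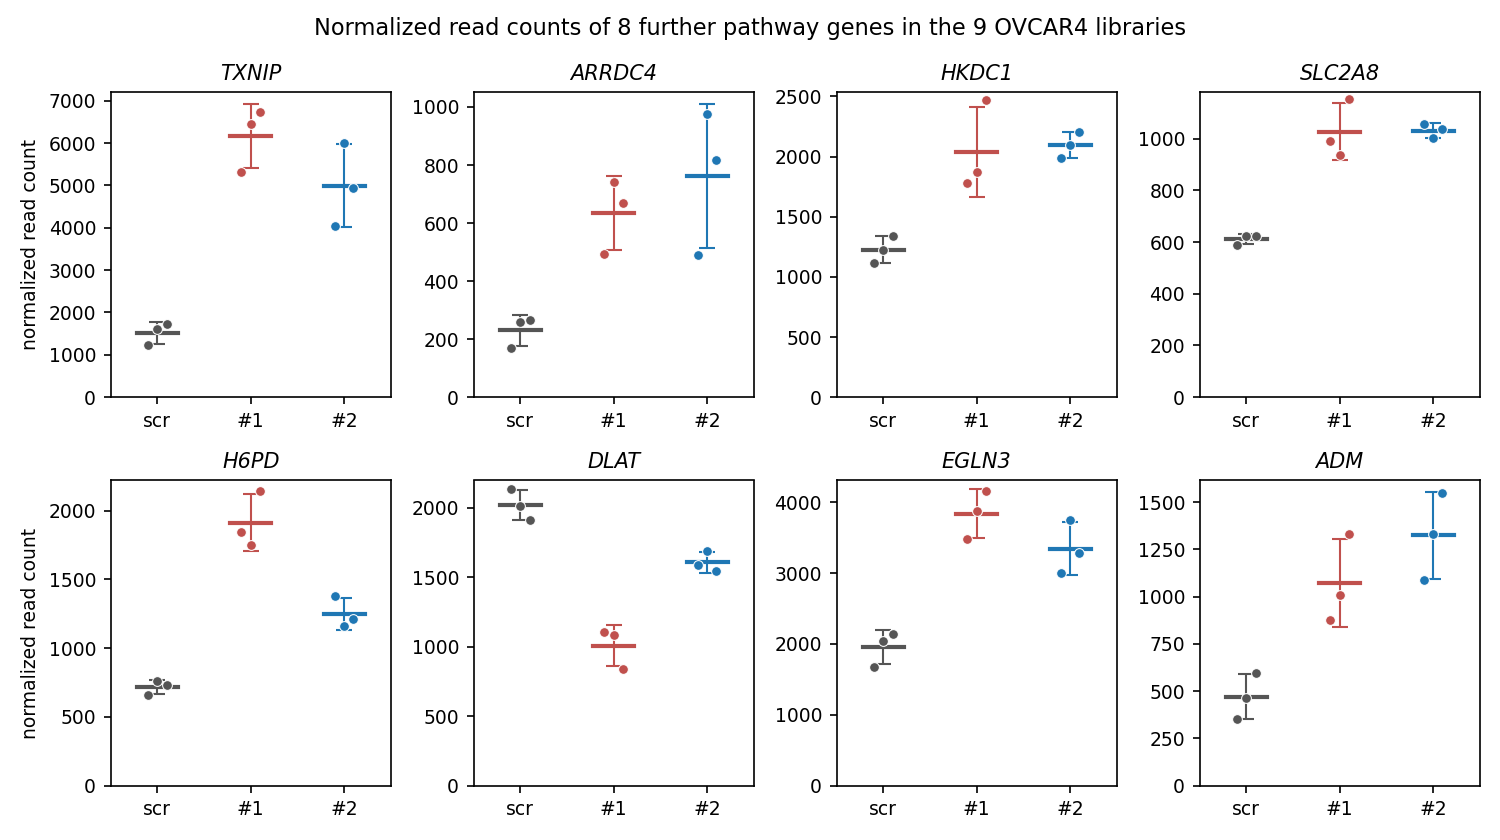
Normalized read counts of 8 further genes of glucose and hypoxia pathways in each library (scr, scr control; #1 and #2, the shRNAs). Points are libraries, wide lines means and bars SD (n = 3); TXNIP, ARRDC4, HKDC1, SLC2A8, H6PD, EGLN3 and ADM are above all scr control libraries in all 6 knockdown libraries, and DLAT is below them.

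GAPDH is 1 of the genes commonly used as a reference in RT-PCR, together with ACTB and TBP. ACTB, beta-actin, had 87503 to 92882 normalized counts under scr control, 102853 to 150052 under shMPZL3 #1 and 97708 to 131846 under shMPZL3 #2. Its log2 fold change was 0.53 (SE 0.13, adjusted p = 0.00561) with shMPZL3 #1 and 0.46 (SE 0.13, adjusted p = 0.0338) grouped. TBP, the TATA-binding protein, was at -0.39 (SE 0.13, adjusted p = 0.0313) with shMPZL3 #1 and GAPDH at -0.43 (above). The mean of the log2 values of the 3 genes was lower than in scr control by 0.106 with shMPZL3 #1 and higher by 0.092 with shMPZL3 #2, so their mean moved less than any 1 of them with shMPZL3 #1. The grouped call of ACTB was lost without any 1 scr control library or shMPZL3 #1 replicate 1 (up to 0.151), and the shMPZL3 #1 call of TBP without any 1 scr control library, shMPZL3 #1 replicate 1 or 3 or shMPZL3 #2 replicate 3, and with no filter (up to 0.129).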

How the data were processed

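Poly-A RNA was sequenced from 9 OVCAR4 cultures as non-directional libraries. Per the labels, reads were aligned with HISAT2 (2.0.5) to hg38 and counted with featureCounts (1.5.0-p3). The authors deposited 1 table of raw read counts per gene, whose 58735 gene IDs all matched GENCODE release 29. How reads on overlapping genes or on several sites were counted is not given in the sources used here.

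Library totals were 15040102 to 27835841 counts, and intervals cover the spread between libraries. Groups came from the labels. Counts were filtered with filterByExpr (16928 genes kept), scaled by TMM and tested with edgeR (4.0.16, R 4.3.3) by glmQLFit and glmQLFTest, two-sided. The grouped comparison used 2 groups (6 knockdown, 3 scr control), and the shRNA comparisons 3 groups. P-values were adjusted by Benjamini-Hochberg over all genes tested, with calls under 0.05. Confidence intervals are at 95%. Normalized counts were scaled to the mean effective library size, and exact permutation tests used log2 CPM with a prior count of 2. The scripts were tested on simulated data. Alternatives were DESeq2 (1.42.0), other scalings and filters, thinning, a replicate block, added pseudogene counts, an added limit of 1 on the absolute log2 fold change, the mean of both shRNAs in the 3-group fit, and leaving out each library. The limit of 1 is a threshold and not a refit, so statements on every alternative fit leave it out. No replicates agreed within sampling noise. The chi-square per gene of their counts was 3.1 to 23.4.

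The members and lists were chosen with earlier results of these data known. All 32 members are named. Of the other lists, the genes named are those called in the grouped comparison, or for both shRNAs in 1 direction, up to 3 a list by size, plus ACTB, TBP and MPZL3. Named outside this rule, after their values were seen, are the 5 hypoxia targets that differed between the shRNAs, HIF1A, MLX, MLXIP and MLXIPL. Promoter sequences are from RefSeq (GRCh38.p14).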

Additional observations from a re-analysis of the deposited data

Results flagged for a closer look

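In 20 of the genes named here the 2 shRNAs, set against the same scr control, differed by edgeR's test of the difference itself (shMPZL3 #2 minus shMPZL3 #1, adjusted p under 0.05 over all genes, 3 libraries each). Of the glycolysis, lactate and pentose phosphate genes, 12 met this rule, each with the higher level for shMPZL3 #2. The log2 differences were 0.67 for SLC2A1, 0.309 for HK2, 0.579 for GPI, 0.841 for PFKP, 0.487 for ALDOC and 0.422 for TPI1. They were 0.683 for PFKFB4, 0.554 for GAPDH, 1.23 for ENO2, 0.861 for LDHB, 0.559 for SLC16A1 and 0.814 for PGD. SLC2A1 and ENO2 passed the test against scr control in opposite directions with the 2 shRNAs.

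MPZL3 itself differed by 1.28 and was lower with shMPZL3 #1. Among the other pathway genes, DLAT differed by 0.673 and H6PD by -0.615, so H6PD was lower with shMPZL3 #2. The hypoxia targets VEGFA (0.732), DDIT4 (0.601), NDRG1 (0.509), CA12 (0.493) and BNIP3 (0.397) were higher with shMPZL3 #2, and these 5 were named because they were. Over the 81 other pathway genes tested, 10 were higher and 5 lower with shMPZL3 #2, so the directions of the genes named here are not those of the lists as a whole. The part that the depth of knockdown has in these differences was not tested. Groups of 3 libraries were too small for a check of single outlying libraries.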

How the results depend on the processing

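No call of a member, of MPZL3 or of the other named genes recomputed changed direction in any alternative fit. Of 2139 values of the tested members under alternatives, 1951 kept their direction and side of the threshold, 65 were uncalled values that changed sign, 85 lost the call and 38 gained one. Of 1859 values of the other named genes and MPZL3, 1715 kept both, 24 were uncalled and changed sign, 94 lost the call and 26 gained one. The count of members called lower in the grouped comparison was 2 with DESeq2 and 2 with no filter, 0 with the replicate block, and 8 with the mean of both shRNAs in the 3-group fit. The count lower with shMPZL3 #2 was 0 with at least 10 counts in every library and 2 with the replicate block. The count lower with shMPZL3 #2 than with shMPZL3 #1 was 1 with upper-quartile scaling, 1 with at least 10 counts in every library and 1 with the replicate block. With an added limit of 1 on the absolute log2 fold change, the counts were 0 higher and 0 lower grouped, 0 higher and 1 lower with shMPZL3 #1, 0 higher and 0 lower with shMPZL3 #2, and 1 higher between the shRNAs. With 1 library left out, the counts ranged from 0 to 1 higher and 0 to 2 lower grouped, 0 to 2 higher and 7 to 14 lower with shMPZL3 #1, 1 to 5 higher and 0 to 2 lower with shMPZL3 #2, and 9 to 15 higher and 0 to 0 lower between the shRNAs. In the same fits, 2.58% to 9.88% of all genes were higher and 0.978% to 8.25% lower grouped. With shMPZL3 #1 these shares were 11.3% to 17% and 9.68% to 16.1%, and with shMPZL3 #2 5.17% to 9.89% and 2.02% to 7.89%. Between the shRNAs they were 3.81% to 8.67% and 4.58% to 8.17%. Over all genes, the grouped calls fell to 453 higher and 172 lower without scr control replicate 1. The labels do not say what a replicate number marks, and the numbers were not taken as pairs because not every pair of libraries with 1 number correlated over 0.1. The correlation of their deviations was -0.001 to 0.218 over 9 pairs (0.137, 0.218 and 0.097 between the shRNAs), against -0.147 to 0.067 for different numbers. The highest correlation of 8 of 9 libraries was with a library of its own number, and in 5 this held in both other groups, a hint of pairing from the data and not from the design. With the replicate block, 14 members were lower with shMPZL3 #1, 6 higher with shMPZL3 #2 and 16 higher between the shRNAs, beside 18.3%, 12.3% and 11.9% of all genes in the same fits. The block ended the grouped calls of LDHB (adjusted p = 0.0624 by edgeR) and DLAT (0.0566). The cause of these shifts was not tested. Depth limits PDK4 and SLC2A3, which had 351 and 58 counts in all libraries together.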
